A study of Homo sapiens with 6 samples.

Results

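Collagen, laminin and integrin genes encode the proteins that epithelial cells lay down beneath themselves and the receptors that hold on to them. The genes were chosen by symbol alone, as every gene in the count tables named COL with a number, A and a number, LAMA, LAMB or LAMC with a digit, ITGA with a number or a letter, or ITGB with a digit. The rule found 80 of the 23228 genes, of which 43 were collagen, 12 laminin and 25 integrin genes. The RNA came from RL95-2, an established human endometrial cancer line grown in RPMI with 10% FBS, and was sequenced in 3 control and 3 ADP-CM libraries. Control cells received a serum-free mixture of RPMI and DMEM in equal volumes, and ADP-CM cells received serum-free RPMI mixed with adipocyte-conditioned medium to 50% (v/v), both for 24 h. ADP-CM was medium in which mature primary adipocytes isolated from visceral fat of female patients with a high BMI had been cultured, filtered before use. The comparison asks which genes of the cancer cells change when medium conditioned by these fat cells is added. It rests on 1 cell line, and the labels do not say that the 3 replicates of a group were separate cultures, so the p-values measure only the spread between these samples, which may be technical.

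Collagens are trimers of alpha chains. Fibrillar collagens such as types I and V form the fibers of connective tissue, whereas type IV collagen forms the sheet-like network of the basement membrane, the layer on which epithelium rests. Laminins are cross-shaped trimers of an alpha (LAMA), a beta (LAMB) and a gamma (LAMC) chain and are the other main component of the basement membrane. Integrins are receptors at the cell surface made of 1 alpha (ITGA) and 1 beta (ITGB) chain, and the pair decides whether the receptor binds collagen, laminin, fibronectin or latent TGFβ.

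The libraries held 16262614 to 18363033 reads on genes, and every pair of replicates of a group differed by more than sampling noise. Of all genes, 12663 had enough reads to be tested, and 44 of the 80 collagen, laminin and integrin genes were among them (20 collagen, 9 laminin and 15 integrin genes). A further 10 genes had no read in any library, among them LAMA4, ITGA4, ITGA8, ITGA11, ITGAD and ITGAX, and 27 of the 80, these 10 included, had at most 3 reads in every library, which is 0.163 to 0.184 CPM, the reads of a gene scaled to library size. The other 9 genes that were not tested reached between 4 and 18 reads, with COL4A3 the highest. All of 8 epithelial markers were tested, and their summed level was 4144 to 4217 CPM in control and 3490 to 3539 CPM in ADP-CM. Most of it came from KRT8 (1830.5 to 1858.3 and 1412.9 to 1452.1 CPM) and KRT18 (1478.3 to 1533.9 and 1366.2 to 1389.5 CPM). Of the 8, MUC1 and PAX8 were called higher (25%), 5 lower (62.5%) and EPCAM neither, where 13.5% of all tested genes were higher and 13.0% lower. Adipocyte markers summed to 15.2 to 16.5 CPM in control and 14.1 to 15.9 CPM in ADP-CM, with 2 of 10 tested and ADIPOQ, LEP and AQP7 at 0 in every library. Of the 2, LIPE was called lower (log2 fold change -0.62) and CFD was not called. Of 8 fibroblast markers only FAP was tested, the list summed to 7.23 to 8.57 CPM in control and 15.1 to 18.0 CPM in ADP-CM, and THY1 and DPT were at 0. Endothelial markers summed to 62.7 to 68.7 and 55.9 to 62.7 CPM with KDR at 0, mostly from CDH5 (60.2 to 65.9 CPM in control and 54.4 to 61.3 CPM in ADP-CM). CDH5 was not called, and ESAM was called lower (log2 fold change -0.89) with 27 to 32 reads in control and 9 to 23 in ADP-CM. Leukocyte markers summed to 7.08 to 8.53 and 10.0 to 12.2 CPM with TYROBP at 0, mostly from CD68, which was called higher (log2 fold change 0.53). FAP had 114 to 133 reads in control and 267 to 320 in ADP-CM, and its part in the results below was not tested.

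Under ADP-CM, 14 of the 44 tested genes rose and 8 fell at an adjusted p-value below 0.01 (edgeR quasi-likelihood test, Benjamini-Hochberg adjustment over all tested genes). This is 31.8% higher and 18.2% lower, where 13.5% of all tested genes were higher and 13.0% lower. The calls were split differently in the 3 families. Of the 15 integrin genes, 7 rose and 1 fell, with a median log2 fold change of 0.09 (ADP-CM over control throughout). Of the 9 laminin genes, 2 rose and 5 fell, with a median of -0.06. Of the 20 collagen genes, 5 rose and 2 fell, with a median of 0.05, and the median over all tested genes was -0.0023. The difference between the families was not tested. In bulk RNA, fewer cells with a transcript and less of it per cell cannot be told apart.

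Most of these changes were small. In the main fit only ITGB6, ITGA5 and COL5A1 also passed a fold change of 1.5, which is 6.82% of the tested genes of the 3 families, where 1.14% of all tested genes rose past that limit. By edgeR's quasi-likelihood test, 29 of the 44 had an unadjusted p below 0.05 in either direction, as did 5694 of all 12663 tested genes. None of the 44 fell past the 1.5-fold limit (0 of 44, where 1.14% of all tested genes did). DESeq2 likewise called none that fell this far. Without ADP-CM replicate 1, however, COL6A1 fell past it (log2 fold change -0.62, adjusted p = 0.00276 by edgeR). For 31 of the 44 genes (70.5%) the normalized CPM of the ADP-CM libraries did not overlap that of the control libraries, where this held for 45.5% of all tested genes. The 44 genes had a median level of 66.5 CPM, against 36.5 CPM over all tested genes. Laminin genes had the highest median level, 502.8 CPM, and collagen genes the lowest, 5.88 CPM.

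**Figure D1:**
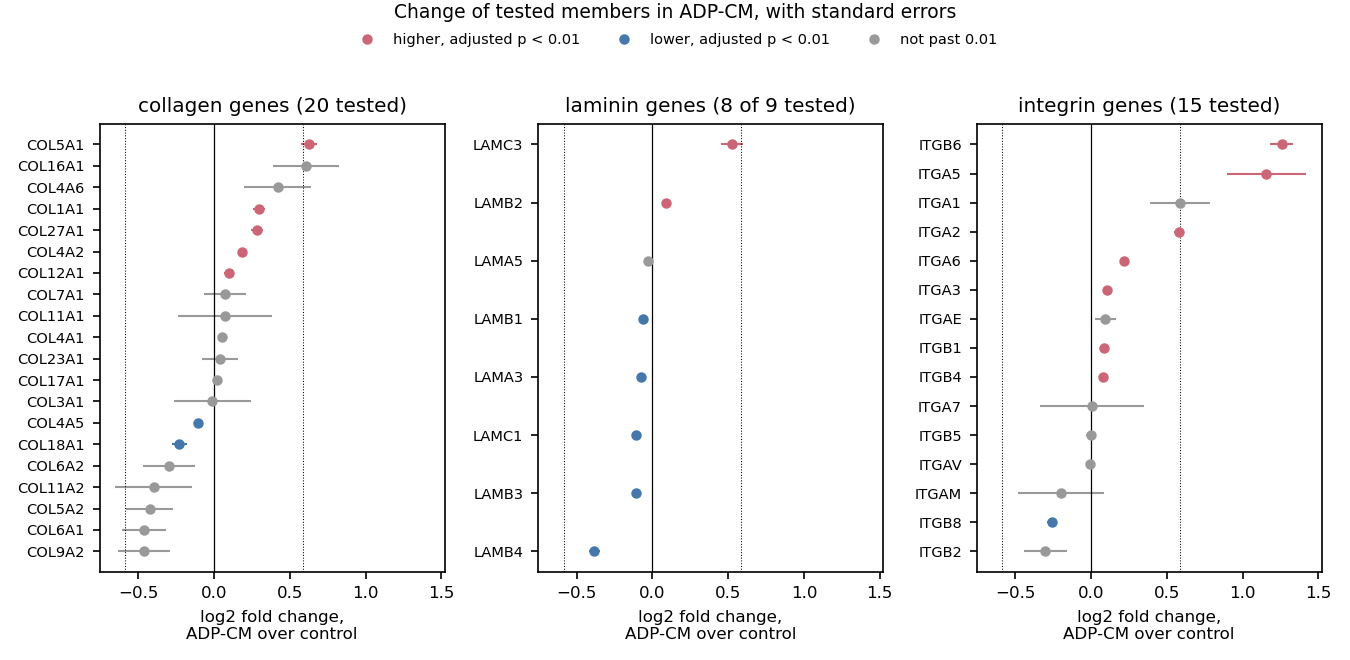
Log2 fold change (ADP-CM over control, x axis) of 43 of the 44 tested collagen, laminin and integrin genes, with its standard error as a bar and dotted lines at a fold change of 1.5. Red points rose and blue points fell at an adjusted p below 0.01. ITGB6 and ITGA5 lie farthest to the right at 1.26 and 1.16, and no blue point reaches the left dotted line.

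Values after ± are SDs over the 3 libraries of a group (n = 3) throughout. Together the laminin genes took 0.508% ± 0.00146 of the reads on genes in control and 0.491% ± 0.00303 in ADP-CM, the integrin genes 0.416% ± 0.00433 and 0.451% ± 0.00141, and the collagen genes 0.188% ± 0.00165 and 0.197% ± 0.000674. Levels of different genes are compared here per kilobase of annotated exon. On that scale LAMC1 stood at 143.9 ± 0.472 CPM per kb in control. LAMA3, LAMA5, LAMB1, LAMB2, LAMB3 and LAMB4 lay between 15.9 and 48.3 CPM per kb. COL17A1, a transmembrane collagen of the hemidesmosome, stood far above the other collagens, at 116.0 ± 1.46 CPM per kb, with COL4A1 next at 21.0 ± 0.165. ITGA3, ITGB4 and ITGA6 were the most abundant integrin genes, at 104.9 ± 0.627, 101.6 ± 2.58 and 98.9 ± 0.960 CPM per kb. The control libraries of ITGB4 and ITGA6 overlapped on this scale, so their order is not resolved. COL17A1, ITGA6 and ITGB4 are all known parts of the hemidesmosome, the anchor that fixes epithelium to its basement membrane. The order depends on the length used. With the longest transcript in place of all annotated exons, ITGB1 moved from the fourth to the first place among integrins, at 221.0 CPM per kb, while COL17A1 (144.5) stayed first among collagens.

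**Figure D2:**
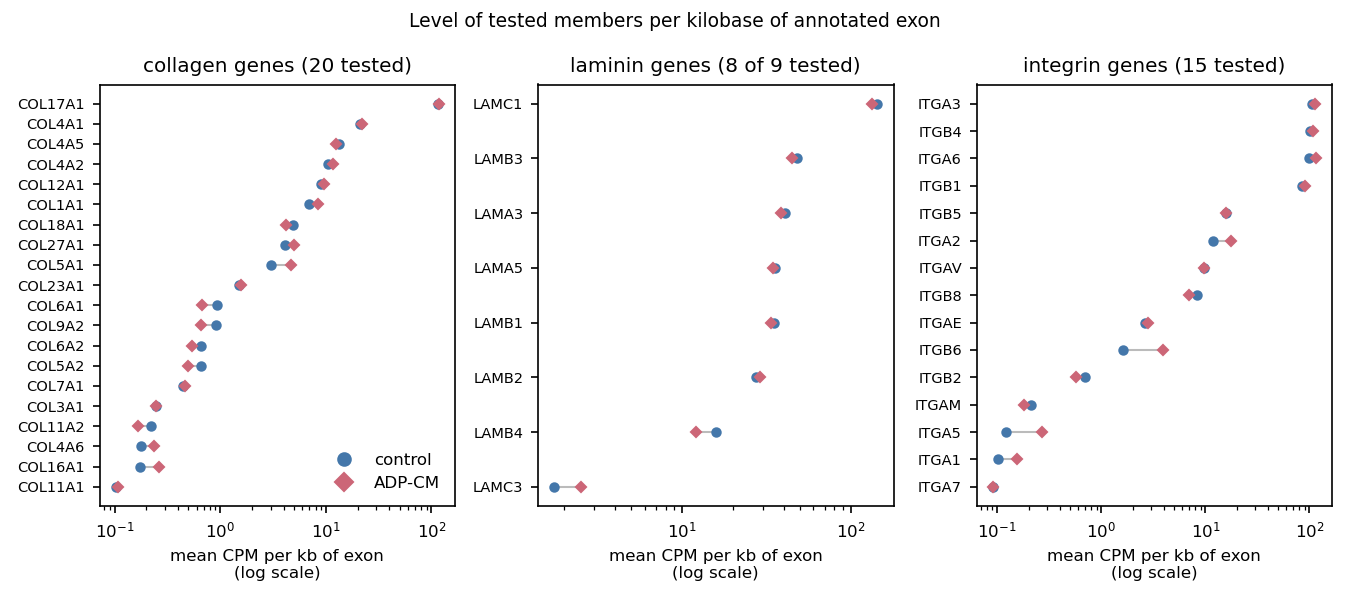
Mean CPM per kilobase of annotated exon (log scale, x axis) of 43 of the 44 tested genes in control (blue circles) and ADP-CM (red diamonds), ordered within each family by the control level. COL17A1 and ITGA3 lead their families, and the largest horizontal gaps are those of ITGB6 and ITGA5, which lie low in the integrin panel.

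Among the integrins, ITGB6 and ITGA5 rose most, and their order is not resolved. ITGB6 encodes a beta chain restricted to epithelia that pairs with the alpha chain of ITGAV, binds fibronectin and activates latent TGFβ. Its reads numbered 150, 160 and 161 in control and 394, 421 and 416 in ADP-CM. All ADP-CM libraries were thus far above all control libraries, and the level went from 9.38 ± 0.119 to 22.4 ± 0.615 TMM-normalized CPM. The log2 fold change was 1.26 with a standard error of 0.078 (adjusted p = 1.25e-21, edgeR quasi-likelihood test). ITGB6 lies on chromosome 2 from 160956178 to 161056824 on the minus strand (GRCh37), and 16.7% of its exonic bases overlap an unnamed gene on the same strand. Its promoter is shown for its low GC content. The 209 bases next to the gene, taken from the RefSeq promoter table (GRCh38.p14) and found by exact match at chr2:161056825-161057033 of GRCh37, minus strand, contain 30.1% G or C, and no capitals appear because none of the motifs searched was found.

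ITGB6: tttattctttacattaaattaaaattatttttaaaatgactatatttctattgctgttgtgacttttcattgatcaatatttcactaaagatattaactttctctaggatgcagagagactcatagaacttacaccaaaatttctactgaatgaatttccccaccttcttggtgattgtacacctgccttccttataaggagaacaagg

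Over the 250 bases before each start in the table, the median GC content was 58% for all 27305 promoters, with the 5th percentile at 34%, and 64.2% for the 56 of the 80 genes with an entry. The motifs searched on both strands were TTCNNNGAA (bound by STAT factors), TGANTCA (AP-1), GGGCGG (the GC box) and TATAAA (the TATA box). They were found in 3, 1, 31 and 6 of these 56 promoters, and in 6.78%, 6.60%, 42.3% and 11.1% of all promoters. No match in the sequences shown overlaps a match of another motif. A match is a run of letters and not a known binding site.

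ITGA2, the alpha chain of the main collagen-binding integrin of epithelia, had 1469, 1609 and 1592 reads in control and 2611, 2506 and 2519 in ADP-CM. It rose from 93.0 ± 2.37 to 139.3 ± 4.28 CPM, with no overlap between groups. The log2 fold change was 0.58 (SE 0.033, adjusted p = 1.09e-23 by edgeR's quasi-likelihood test), just short of the 1.5-fold limit. Its neighbor ITGA1, which encodes another collagen-binding alpha chain, lies 30131 bases away on the same strand and was weakly expressed, with 28 to 34 reads in control and 50 to 56 in ADP-CM. Its log2 fold change of 0.59 did not pass the test (adjusted p = 0.0145, edgeR). ITGA5, which pairs with ITGB1 as the fibronectin receptor, had only 17, 11 and 17 reads in control and 43, 37 and 30 in ADP-CM. The groups did not overlap, and the log2 fold change was 1.16 (SE 0.26, adjusted p = 0.000287 by edgeR). Without control replicate 1 the log2 fold change was 1.28, above the 1.25 of ITGB6 in the same refit. DESeq2 gave the same gene an adjusted p of 0.0110, so that this call rests on few reads and on the choice of test. The stretches upstream of ITGA2 (chr5:52284932-52285169, plus strand) and ITGA5 (chr12:54813051-54813300, minus strand), from the same table and placed on GRCh37, are rich in G and C (75.6% and 70.0%), in contrast to ITGB6. Capitals mark the GC box on either strand.

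ITGA2: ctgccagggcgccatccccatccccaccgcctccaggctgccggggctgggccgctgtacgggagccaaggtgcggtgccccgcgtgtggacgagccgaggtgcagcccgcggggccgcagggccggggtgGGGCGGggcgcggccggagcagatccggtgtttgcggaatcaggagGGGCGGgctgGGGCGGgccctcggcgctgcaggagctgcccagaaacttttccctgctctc

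ITGA5: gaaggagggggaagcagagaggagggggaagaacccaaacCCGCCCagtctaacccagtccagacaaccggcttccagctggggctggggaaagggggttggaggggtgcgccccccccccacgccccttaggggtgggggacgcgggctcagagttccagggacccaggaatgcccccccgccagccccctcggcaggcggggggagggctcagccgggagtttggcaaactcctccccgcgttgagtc

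The laminin-binding chains ITGA6 and ITGA3 and their beta chains rose by less. ITGA6, which pairs with ITGB4 in the hemidesmosome and with ITGB1 elsewhere, had 10700, 11275 and 11202 reads in control and 13893, 14396 and 13887 in ADP-CM. Its level went from 660.8 ± 6.41 to 769.1 ± 15.1 CPM, a log2 fold change of 0.22 (SE 0.019, adjusted p = 4.39e-15, edgeR quasi-likelihood test). The rise of its partner ITGB4 was smaller, 687.1 ± 17.4 to 727.3 ± 21.4 CPM, with a log2 fold change of 0.08 (SE 0.020). The adjusted p of ITGB4 was 0.000822, and it became 0.0256 without control replicate 3 and 0.0103 without ADP-CM replicate 1 (edgeR). Reads of ITGA6 per read of ITGB4 were 0.938 to 0.980 in control and 1.01 to 1.11 in ADP-CM, a comparison chosen after the values were seen. ITGA3, whose product joins ITGB1 to bind laminin, went from 1028 ± 6.15 to 1104 ± 29.0 CPM (log2 fold change 0.10, SE 0.018, adjusted p = 4.88e-06, edgeR). ITGB1, the beta chain shared by most of these receptors, went from 1241 ± 20.8 to 1319 ± 28.2 CPM (log2 fold change 0.09, SE 0.018, adjusted p = 5.03e-05, edgeR). For these 4 genes the libraries of both groups did not overlap. For ITGB4 the gap was narrow, with the highest control library at 703.4 CPM and the lowest ADP-CM library at 704.7 CPM.

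ITGAV can pair with ITGB1, ITGB3, ITGB5, ITGB6 or ITGB8, and the beta chains did not move alike. ITGB8, which like ITGB6 pairs with ITGAV and activates latent TGFβ, was the only integrin gene that fell. It had 2045, 2121 and 2173 reads in control and 1916, 1981 and 1902 in ADP-CM. Because the ADP-CM libraries were deeper, the normalized levels were farther apart than the reads, with 126.2 ± 0.752 and 105.8 ± 2.31 CPM and no overlap. The log2 fold change was -0.26 (SE 0.031, adjusted p = 7.33e-10, edgeR quasi-likelihood test). ITGAV had 188.0 ± 3.39 CPM in control and 186.9 ± 1.32 in ADP-CM (log2 fold change -0.01, SE 0.027, adjusted p = 0.832, edgeR), and ITGB5 102.5 ± 3.79 and 102.4 ± 2.42 CPM (adjusted p = 0.994, edgeR). Their libraries overlapped between groups. ITGB3 was not tested, with 7, 8 and 7 reads in control and 6, 4 and 4 in ADP-CM. Reads of ITGB6 per read of ITGB8 were 0.0734 to 0.0754 in control and 0.206 to 0.219 in ADP-CM. Per kilobase of exon, ITGB8 stayed the more abundant of both, with ITGB6 at 1.62 CPM and ITGB8 at 8.33 CPM in control, and at 3.88 and 6.98 CPM, respectively, in ADP-CM. This ratio was also chosen after the values were seen.

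**Figure D3:**
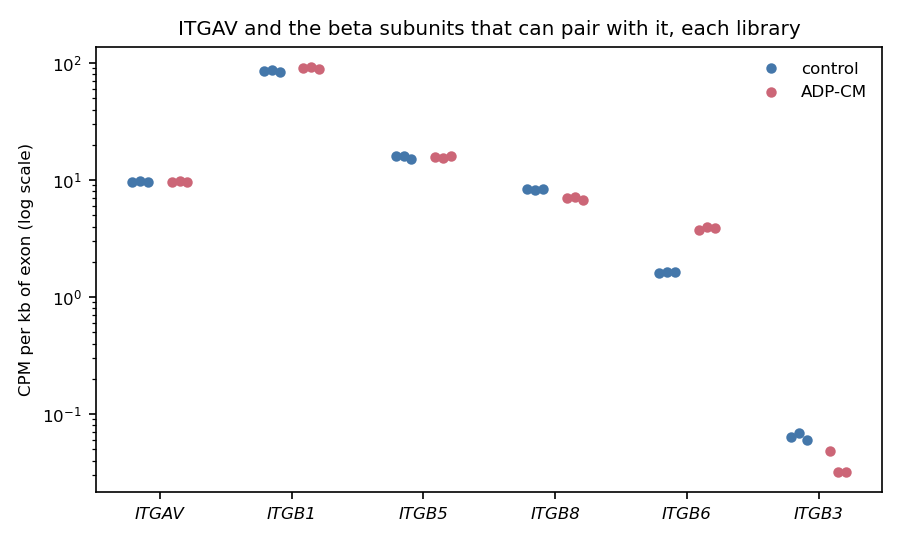
CPM per kilobase of annotated exon (log scale) of ITGAV and the 5 beta chains that can pair with it, 1 point per library, 3 control (blue) and 3 ADP-CM (red). ITGB6 lies higher and ITGB8 lower in all ADP-CM libraries than in any control library, while the points of ITGAV and ITGB5 overlap. ITGB3 rests on 4 to 8 reads per library.

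The remaining tested integrin genes, ITGA7, ITGAE, ITGAM and ITGB2, did not pass the test, with log2 fold changes between -0.30 and 0.09. ITGAM and ITGB2 encode chains of leukocyte integrins, and ITGB2, the more abundant of both, was at 5.10 ± 0.335 CPM in control.

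Among the fibrillar collagens, COL5A1 rose most. Type V collagen sits inside type I fibers and sets their diameter. COL5A1 had 527, 584 and 574 reads in control and 947, 869 and 1029 in ADP-CM, so the groups were well separated. The level went from 33.5 ± 1.05 to 51.9 ± 4.29 CPM, with a log2 fold change of 0.63 (SE 0.052, adjusted p = 6.40e-16, edgeR quasi-likelihood test). Without ADP-CM replicate 3 the log2 fold change was 0.57, below the 1.5-fold limit. COL5A2, which supplies the other chain of the common type V trimer, had 97, 78 and 67 reads in control and 63, 61 and 73 in ADP-CM. These libraries overlapped, and its log2 fold change of -0.42 did not pass (adjusted p = 0.0260, edgeR). The value turned on single control libraries, at -0.56 (adjusted p = 0.00843) without control replicate 3 and -0.25 (adjusted p = 0.295) without control replicate 1, and DESeq2 gave an adjusted p of 0.146. The reads of COL5A1 per read of COL5A2 were 5.43 to 8.57 in control and 14.1 to 15.0 in ADP-CM, a ratio chosen after the values were seen. COL5A1 lies on chromosome 9 from 137533649 to 137736689 on the plus strand (GRCh37). The 250 bases before it (chr9:137533399-137533648) hold 74.0% G or C and the GC box at the capitals.

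COL5A1: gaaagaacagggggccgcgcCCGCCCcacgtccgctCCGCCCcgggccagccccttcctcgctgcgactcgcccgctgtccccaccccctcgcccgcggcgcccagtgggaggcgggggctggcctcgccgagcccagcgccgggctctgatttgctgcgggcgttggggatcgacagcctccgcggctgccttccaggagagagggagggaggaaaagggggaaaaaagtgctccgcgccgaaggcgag

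COL1A1, the alpha chain that makes up most of type I collagen, had 1007, 1118 and 1005 reads in control and 1376, 1424 and 1408 in ADP-CM. It rose from 62.3 ± 3.73 to 76.7 ± 0.839 CPM, a log2 fold change of 0.30 (SE 0.040, adjusted p = 5.94e-09, edgeR). Its usual partner COL1A2 was listed with a single read over all 6 libraries. COL27A1, a fibrillar collagen known from cartilage, had 950, 947 and 972 reads in control and 1250, 1264 and 1307 in ADP-CM, with a log2 fold change of 0.29 (SE 0.040, adjusted p = 2.08e-08, edgeR). For both genes every ADP-CM library lay above every control library. COL3A1, COL11A1 and COL11A2 had at most 1.67 CPM on average in either group and did not pass the test.

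Type IV collagen is built from pairs of genes that lie head to head, COL4A1 with COL4A2, COL4A3 with COL4A4 and COL4A5 with COL4A6. Neither COL4A3 nor COL4A4 had enough reads to be tested. COL4A2 had 3314, 3350 and 3390 reads in control and 4078, 4144 and 4236 in ADP-CM. It rose from 200.3 ± 3.44 to 227.2 ± 2.73 CPM, with a log2 fold change of 0.18 (SE 0.026, adjusted p = 2.93e-08, edgeR). COL4A1 had 307.9 ± 2.42 CPM in control and 319.8 ± 7.96 in ADP-CM, a log2 fold change of 0.06 (SE 0.023) that did not pass the test (adjusted p = 0.0540, edgeR). Its adjusted p was 0.00694 without ADP-CM replicate 3, but it did not pass in the other 12 refits, up to 0.246 without ADP-CM replicate 1. The libraries did not overlap for either gene. Reads of COL4A2 per read of COL4A1 were 0.646 to 0.658 in control and 0.693 to 0.741 in ADP-CM, again a ratio chosen after the values were seen. The gene bodies start 1345 bases apart on opposite strands of chromosome 13 in GENCODE. The sequence shown is 100 bases long, at chr13:110959505-110959604 of GRCh37 and read in the direction of COL4A2. It begins 1 base upstream of the annotated start of COL4A1, which is on the minus strand, lies inside the gene body of COL4A2 as GENCODE draws it (from 110958159) but outside the exons of both, holds 78.0% G or C, and has the GC box in capitals.

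COL4A2: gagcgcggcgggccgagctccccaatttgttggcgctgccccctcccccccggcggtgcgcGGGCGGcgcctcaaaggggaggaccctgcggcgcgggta

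COL4A5 had 2568, 2661 and 2691 reads in control and 2603, 2806 and 2638 in ADP-CM, which after normalization was a fall from 157.8 ± 0.481 to 146.7 ± 5.44 CPM. The log2 fold change was -0.10 (SE 0.029, adjusted p = 0.00349, edgeR). This call is fragile, since the adjusted p lay between 0.0125 and 0.0146 when control replicate 1, 2 or 3 was left out, at 0.0393 and 0.0170 without ADP-CM replicate 1 or 3, and at 0.0246 by DESeq2. COL4A6, which starts 341 bases away on the opposite strand, had only 21 to 32 reads in control and 38 to 42 in ADP-CM (log2 fold change 0.42, adjusted p = 0.129, edgeR). Per kilobase of exon, COL4A5 and COL4A6 stood at 13.3 and 0.176 CPM in control, and COL4A1 and COL4A2 at 21.0 and 10.4 CPM. With the longest transcript instead, COL4A5 stood at 24.2 and COL4A2 at 31.1 CPM per kb, so their order depends on the length used.

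Of the other collagens, COL18A1, a basement membrane collagen from which endostatin is cut, had 701, 669 and 700 reads in control and 646, 644 and 641 in ADP-CM. It fell from 41.3 ± 1.82 to 35.2 ± 0.425 CPM without overlap, with a log2 fold change of -0.23 (SE 0.051, adjusted p = 0.000230, edgeR). Of its exonic bases, 18.5% overlap SLC19A1 on the opposite strand, and the strand setting of the counting is not given in the sources used here. COL12A1, a collagen attached to type I fibers, had 2592, 3069 and 2925 reads in control and 3303, 3414 and 3301 in ADP-CM, and the normalized levels overlapped. Its log2 fold change of 0.10 (SE 0.030, adjusted p = 0.00910, edgeR) became 0.05 without control replicate 1 (adjusted p = 0.239). It also did not pass without control replicate 3 (0.0317) or without ADP-CM replicate 1 (0.0319) or 2 (0.0482), nor with DESeq2 (0.0637). COL17A1, the most abundant collagen gene, had 810.7 ± 10.2 CPM in control and 820.9 ± 1.30 in ADP-CM, and its log2 fold change of 0.02 did not pass (adjusted p = 0.467, edgeR).

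The chains of type VI collagen, which forms beaded filaments beside basement membranes, were all low. COL6A1 had 83, 85 and 92 reads in control and 82, 63 and 61 in ADP-CM, a log2 fold change of -0.46 that narrowly missed the limit (adjusted p = 0.0101, edgeR). With each library left out, its adjusted p ranged from 0.00276 (without ADP-CM replicate 1) to 0.0554 (without ADP-CM replicate 3), and by DESeq2 it was 0.0856. Its log2 fold change without ADP-CM replicate 1 was -0.62, past the 1.5-fold limit. COL6A2 had 53 to 69 reads in control and 49 to 56 in ADP-CM (log2 fold change -0.30, adjusted p = 0.168, edgeR), and COL6A3 had 2 reads in 1 control library and 0 elsewhere. The remaining tested collagens, COL7A1, COL9A2, COL16A1 and COL23A1, did not pass either, with COL16A1 at 0.61 (adjusted p = 0.0209) and COL9A2 at -0.46 (adjusted p = 0.0269) on the log2 scale.

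**Figure D4:**
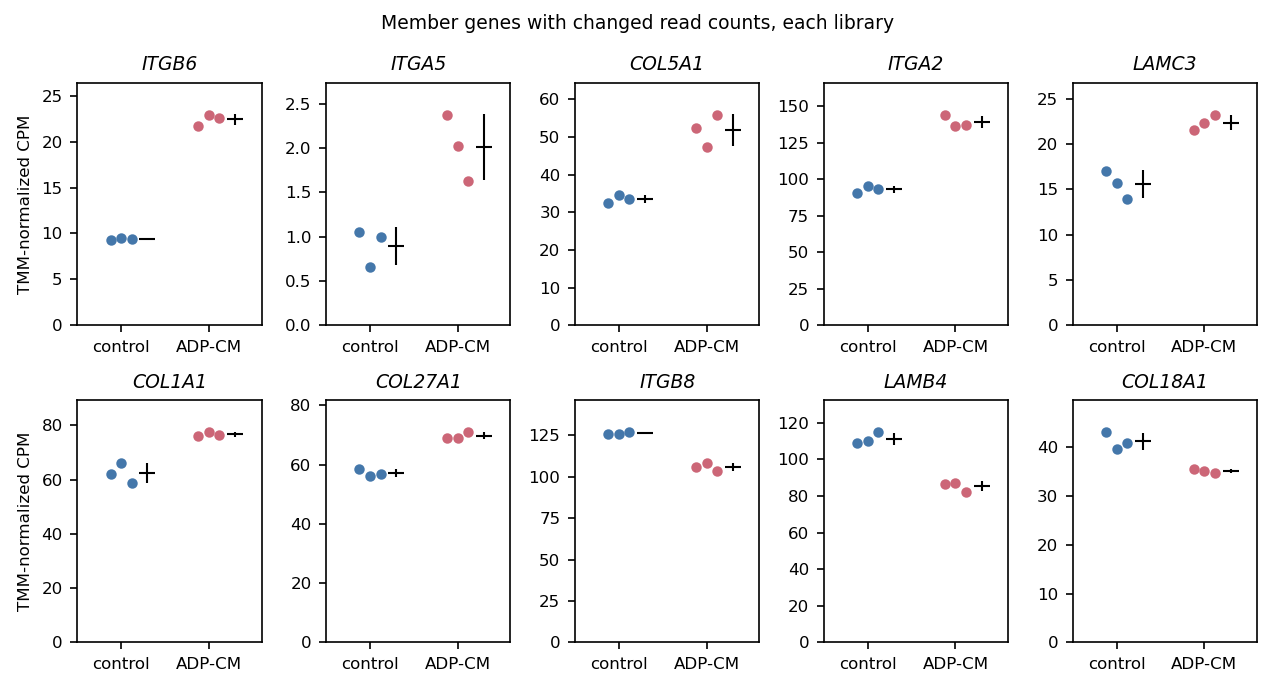
TMM-normalized CPM (y axis, from 0) of 10 genes with an adjusted p below 0.01, 1 point per library, with the mean and SD of each group (n = 3) as a black cross. The groups do not overlap in any panel, ITGA5 rests on at most 43 reads per library, and ITGB8, LAMB4 and COL18A1 are the 3 genes shown that fell.

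Among the laminins, LAMB4, a beta chain, fell most. It had 1764, 1862 and 1967 reads in control and 1569, 1599 and 1514 in ADP-CM, and 111.3 ± 3.28 and 85.4 ± 2.68 CPM. The log2 fold change was -0.38 (SE 0.034, adjusted p = 1.17e-14, edgeR quasi-likelihood test). LAMC3, the least abundant tested laminin gene, moved the other way. It had 277, 266 and 239 reads in control and 391, 409 and 428 in ADP-CM, and rose from 15.6 ± 1.55 to 22.4 ± 0.840 CPM (log2 fold change 0.52, SE 0.071, adjusted p = 1.24e-08, edgeR). Neither gene had overlapping groups. LAMB4 lies 20335 bases from LAMB1 on the same strand of chromosome 7, and LAMB1 changed far less.

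LAMA3 and LAMB3 encode chains of the laminin of hemidesmosomes. LAMB3 went from 224.5 ± 4.36 to 208.1 ± 3.29 CPM, a log2 fold change of -0.11 (SE 0.026, adjusted p = 0.000474, edgeR). LAMA3 went from 587.4 ± 11.0 to 557.1 ± 7.15 CPM (log2 fold change -0.08, SE 0.020, adjusted p = 0.00159, edgeR), and its adjusted p was 0.0262 without control replicate 1. Both fell without overlap between the groups.

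Of the chains of the broadly expressed laminins, LAMC1 had 1215 ± 3.98 CPM in control and 1129 ± 6.49 in ADP-CM, a fall with a log2 fold change of -0.11 (SE 0.017, adjusted p = 7.00e-07, edgeR). LAMB1 fell from 653.8 ± 7.91 to 625.1 ± 3.64 CPM (log2 fold change -0.06, SE 0.019, adjusted p = 0.00538, edgeR). Its adjusted p was 0.0572 without control replicate 2, 0.0105 without control replicate 3 and 0.0301 without ADP-CM replicate 1. LAMB2, the alternative beta chain, rose from 187.2 ± 3.13 to 199.1 ± 5.98 CPM (log2 fold change 0.09, SE 0.027, adjusted p = 0.00654, edgeR). This call was lost without control replicate 1, 2 or 3 (adjusted p 0.0116, 0.0185 and 0.0531), without ADP-CM replicate 1 or 3 (0.0418 and 0.0378) and with DESeq2 (0.0370). LAMA5, the alpha chain of adult epithelial basement membranes, had a log2 fold change of -0.03 and did not pass (adjusted p = 0.370, edgeR), and the value turned on single ADP-CM libraries, at -0.07 (adjusted p = 0.00688) without ADP-CM replicate 3 and 0.0084 (adjusted p = 0.803) without ADP-CM replicate 2. LAMA1, LAMA2 and LAMA4 had at most 7 reads in any library and were not tested, so LAMA3 and LAMA5 were the only alpha chains above the filter.

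Genes that work with these families changed in both directions. Of 30 genes for other basement membrane and matrix glycoproteins, 16 were tested, and 4 rose (25%) and 5 fell (31.2%), where 13.5% of all tested genes rose and 13.0% fell. TINAGL1 had a log2 fold change of 0.22 and HSPG2, the heparan sulfate proteoglycan perlecan, of 0.32. FN1, fibronectin, the ligand of the integrins with ITGA5 or ITGB6, had 4, 7 and 12 reads in control and 42, 33 and 42 in ADP-CM. Its log2 fold change of 2.20 (SE 0.31, adjusted p = 2.01e-08, edgeR) was the largest rise of this list, though on few reads. MATN2 (-0.79), FREM2 (-0.52) and DAG1 (-0.21) fell most clearly. Of 32 genes for collagen processing enzymes and chaperones, 25 were tested, and 5 rose (20%) and 4 fell (16%), closer to the 13.5% and 13.0% of all tested genes. SERPINH1, the collagen chaperone, went from 314.7 ± 6.33 to 225.4 ± 4.02 CPM, while LOXL2, a cross-linking enzyme, went from 16.3 ± 0.973 to 32.4 ± 0.929 CPM (log2 fold changes -0.48 and 0.99). FKBP10 (0.53) and CRTAP (0.10) also rose, and P4HB (-0.18) and LEPREL1 (-0.20), which take part in proline hydroxylation, fell.

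Of 35 proteins that act on integrins from inside the cell or beside them, 31 were tested, and 4 rose and 6 fell, close to the 13.5% and 13.0% of all genes for the rises (12.9%) and somewhat above for the falls (19.4%). DST, which links ITGB4 to keratin, rose with a log2 fold change of 0.32, TNS4 with 0.38 and SRC with 0.21. PARVA (-0.32), ACTN4 (-0.12) and CD9 (-0.13) fell. Of 15 receptors for collagen or laminin that are not integrins, 9 were tested, and 2 rose (22.2%) and 6 fell (66.7%), again beside 13.5% and 13.0% of all tested genes. CD44, which went from 304.2 ± 3.99 to 411.4 ± 1.75 CPM, and RPSA (log2 fold change 0.18) rose, whereas SDC4 (-0.44), DDR1 (-0.25), the collagen receptor kinase, and DAG1 fell. BCAM had the largest fall of this list (-0.78). DAG1 is counted both here and among the matrix glycoproteins. All calls of these lists are at an adjusted p below 0.01 by edgeR's quasi-likelihood test.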

How the data were processed

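For each library the authors deposited raw counts of reads per RefSeq gene, made by their pipeline of bcl2fastq, TopHat2 on hg19, SAMtools and HTSeq from 50 bp single reads of stranded mRNA libraries. Tool versions and the strand setting are not given in the sources used here. Reads that align to several places or to overlapping genes are left out, so similar genes may be undercounted. Summary lines were kept out of library sizes: reads on no gene were 10.3% ± 0.0528 of all counted in the control group and 11.5% ± 0.0331 in the ADP-CM group.

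In R 4.3.3, edgeR 4.0.16 with TMM normalization, filterByExpr and the quasi-likelihood test was fitted on all genes, after a run on simulated data. The authors used DESeq. A call needs an adjusted p below 0.01, and the study's fold limit of 1.5 was applied where stated. CPM are means ± SD over 3 libraries computed from the counts. Alternatives included DESeq2 1.42.0. Exon lengths and positions came from GENCODE release 44 on GRCh37.

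The genes and lists were chosen with earlier results of these data known. Named genes were, per family, up to 6 higher and 6 lower by fold change among the calls, the 2 highest per kb, and partner chains of known heteromers. Other lists give up to 3 per direction by adjusted p. Other genes named in passing were chosen after their values were seen. The detection limit (3 reads) covers counting error only. A gene that this rule names is not reported here.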

Additional observations from a re-analysis of the deposited data

Results flagged for a closer look

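Reads that lay on no annotated gene, which no comparison above uses, made up 11.55% of all counted reads in the ADP-CM libraries, above the level in control (10.3%). This share names no gene, and its relation to the collagen, laminin and integrin genes was not tested.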

How the results depend on the processing

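No called collagen, laminin or integrin gene changed sign in any of the 13 refits (DESeq2, other size factors, other filters, a robust fit, a replicate block and each library left out). The limits moved the counts most. With a fold change over 1.2 added, collagen genes gave 3 higher and 0 lower, laminin genes 1 and 1, and integrin genes 3 and 0. With DESeq2, 1 collagen gene was lower and 1 laminin gene higher. At an adjusted p below 0.05, 5 collagen genes were lower. The 3 genes past the 1.5-fold limit became 5 at that p and 8 with a 1.2-fold limit. The share of all tested genes past these changed limits was not counted, so these counts have no background beside them. Which genes passed the 1.5-fold limit also varied. Without ADP-CM replicate 3, COL5A1 did not (log2 fold change 0.5704) and ITGA2 did (0.5943). ITGA2 also passed with plain library sizes (0.5855) and without control replicate 2 (0.5998) or ADP-CM replicate 2 (0.5947). LAMC3 passed without control replicate 1 (0.591) and COL6A1 downward without ADP-CM replicate 1 (-0.6164). Leaving out each library lost 1 to 5 of the 22 calls and DESeq2 lost 4 (COL12A1, COL4A5, ITGA5 and LAMB2). Calls over all genes also became fewer, from 3357 in the main fit to 1978 with DESeq2 and 2638 to 3206 with each library left out. Leaving out each library gave 1 to 2 lower collagen and 1 to 2 higher laminin genes. Some log2 fold changes near 0 that were not called turned sign: ITGB5 was 3.326e-05 with DESeq2 size factors, 0.002643 with plain library sizes, 0.001076 without a filter, and -0.03111 to 0.01752 with each library left out. That last range was -0.01973 to 0.00519 for ITGAV and -0.06755 to 0.008387 for LAMA5. The cause was not tested. Same-numbered libraries correlated at 0.0726, 0.0141 and 0.0973 in their deviations from the group means, too weakly to be treated as pairs, and 5 of 6 libraries correlated best with their own number. A replicate block lost 0 calls and added COL6A1 (log2 fold change -0.46, adjusted p = 0.00750 by edgeR), which was also gained with no filter, with at least 10 counts, with the robust fit and without ADP-CM replicate 1. COL5A2 was gained without control replicate 3, and COL4A1 and LAMA5 without ADP-CM replicate 3. The depth limits genes with few reads, such as ITGA5, ITGA1 and COL4A6, and the 36 genes that were not tested.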
